A study of Homo sapiens with 10 samples.

Results

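The RNA of 119 subfamilies of hAT DNA transposons was followed in H1, a widely used human embryonic stem cell line, after knockdown of 4 chromatin-associated proteins. The members are all rows of the deposited table whose repeat class begins with DNA:hAT, which made 119 of 14785 rows and 119 of the 973 rows for transposable elements (TEs). They were chosen by annotation and not by any measured value. Short hairpin RNAs (shRNAs) targeted SMARCA4, the ATPase of BAF chromatin remodelling complexes, MAFK, a small MAF transcription factor, E2F6, a repressive E2F factor, or KDM1A, a histone demethylase. The control was shLUC, a hairpin directed at luciferase, a gene that human cells lack. All 5 groups shared a wild-type background, lentiviral delivery, puromycin selection and feeder-free culture, and each had 2 libraries, given as biological duplicates. The labels give no clone and no time after infection, and they do not say whether the duplicates came from separate infections, so p-values measure the spread between these libraries.

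The hAT transposons are named after hobo of the fruit fly, Activator of maize and Tam3 of snapdragon. They move by cut and paste: a transposase recognises short terminal inverted repeats, excises the element and inserts it elsewhere. Human copies are fossils that no longer move, and most are short elements that never encoded a transposase and relied on that of a longer relative. Copies lie throughout the genome, many in introns and between genes, so a read over a copy can belong to the transcript of the gene around it. A subfamily value sums reads over many copies and does not say which copies were transcribed.

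The members fell into 73 hAT-Charlie, 32 hAT-Tip100 and 8 hAT-Blackjack rows, 4 rows named only hAT, 1 hAT-Ac row and 1 hAT-Tag1 row. MER96B appears both as a hAT-Tip100 row and as a row named only hAT, and these were kept apart. Values are normalized tag counts, which are whole numbers scaled by the authors so that libraries share nearly the same total. The depth of sequencing is therefore unknown. Values are not per length or per copy, so rows are compared across libraries and not with each other. No member was at 0 in any library, and all 119 passed the filter on low values.

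Library facts that touch the results are few. The targeted transcript fell past the threshold in shSMARCA4 alone: SMARCA4 had 1100 and 985 against 8086 and 8374 in shLUC (log2 change -2.98, limma adjusted p 8.56e-05). KDM1A had 3290 and 1879 in shKDM1A against 6344 and 5925 (limma adjusted p 0.132), so replicate 1 was the less depleted library. E2F6 had 336 and 304 in shE2F6 against 491 and 553 (limma adjusted p 0.774). MAFK had 82 and 216 in the libraries labelled shMAFK against 212 and 288 (limma adjusted p 0.572), and these groups overlapped, so directions in that comparison rest on the label. All 10 pluripotency markers on the list were in the table. Their summed value was 134320 to 162837 in 9 libraries and 257968 in shKDM1A replicate 1. The mesoderm markers MIXL1 and EOMES summed to 4239 and 856 in shSMARCA4 and to 10 to 58 elsewhere. The endoderm marker FOXA2 had 792 and 170 in shSMARCA4 and 0 to 4 elsewhere. The fibroblast markers COL1A1 and COL1A2 summed to 21533 in shKDM1A replicate 1 and to 2794 to 9335 elsewhere. Also listed but not found among the rows were DCN and LUM (fibroblast), TBXT and MESP1 (mesoderm), and SOX17, GATA6 and GATA4 (endoderm). The same held for PAX6, SOX1 and OTX1 (neural ectoderm), and for GATA3, CGA and TFAP2A (trophoblast). The part of these cell-state markers in the hAT values was not tested, and in bulk RNA fewer cells of a type and less RNA per cell cannot be told apart.

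Values of the hAT rows varied little between libraries, much as those of other TE rows did. Mean values over the 10 libraries ran from 110 for MER45R to 14269 for MER5A, with a median of 872, and single values from 64 to 21308. The highest library exceeded the lowest by a median factor of 1.52, from 1.10 for MER106B to 3.22 for MER97b. The factor was over 2 for 12 of the 119 rows (10.1%). Among 12287 genes with means in the same range the median factor was 1.80 and 36.9% exceeded 2, and among 741 other TE rows it was 1.57 and 13.9% exceeded 2.

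MER106B, the steadiest, lay between 464 and 512 in all 10 libraries. MER97b, the most variable, had 193 and 164 in shLUC, 162 and 172 with shSMARCA4, 180 and 141 with shMAFK, 193 and 206 with shE2F6, and 64 and 180 with shKDM1A. The low value of a single library, shKDM1A replicate 1, set that width, and the other 9 libraries lay between 141 and 206. These 2 rows were picked after their values were seen.

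The most abundant row of each class shows the same spread. MER5A, a short hAT-Charlie element without a coding region, had 11635 and 14274 in shLUC, 11997 and 21308 with shSMARCA4, 12340 and 13575 with shMAFK, 11997 and 17670 with shE2F6, and 11277 and 16615 with shKDM1A. Within shSMARCA4, shE2F6 and shKDM1A the replicates of MER5A differed by more than any of its group means did. MamTip2, of hAT-Tip100, had 2430 and 2170 in shLUC, 2071 and 2544 with shSMARCA4, 2494 and 2473 with shMAFK, 2363 and 2544 with shE2F6, and 1718 and 2586 with shKDM1A. MER53, among the rows named only hAT, had 1930 and 1522 in shLUC, 1411 and 1903 with shSMARCA4, 1552 and 1527 with shMAFK, 1697 and 1506 with shE2F6, and 1350 and 1793 with shKDM1A. For MER53 the 2 control libraries alone spanned most of the range seen elsewhere. OldhAT1, the hAT-Ac row, had 11277 and 10757 in shLUC, 11635 and 10757 with shSMARCA4, 9296 and 8628 with shMAFK, 11277 and 10757 with shE2F6, and 11997 and 10071 with shKDM1A. The repeated 10757 of OldhAT1 in 3 libraries comes with values that recur between libraries among high rows, so small differences between high rows are stepped.

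**Figure D1:**
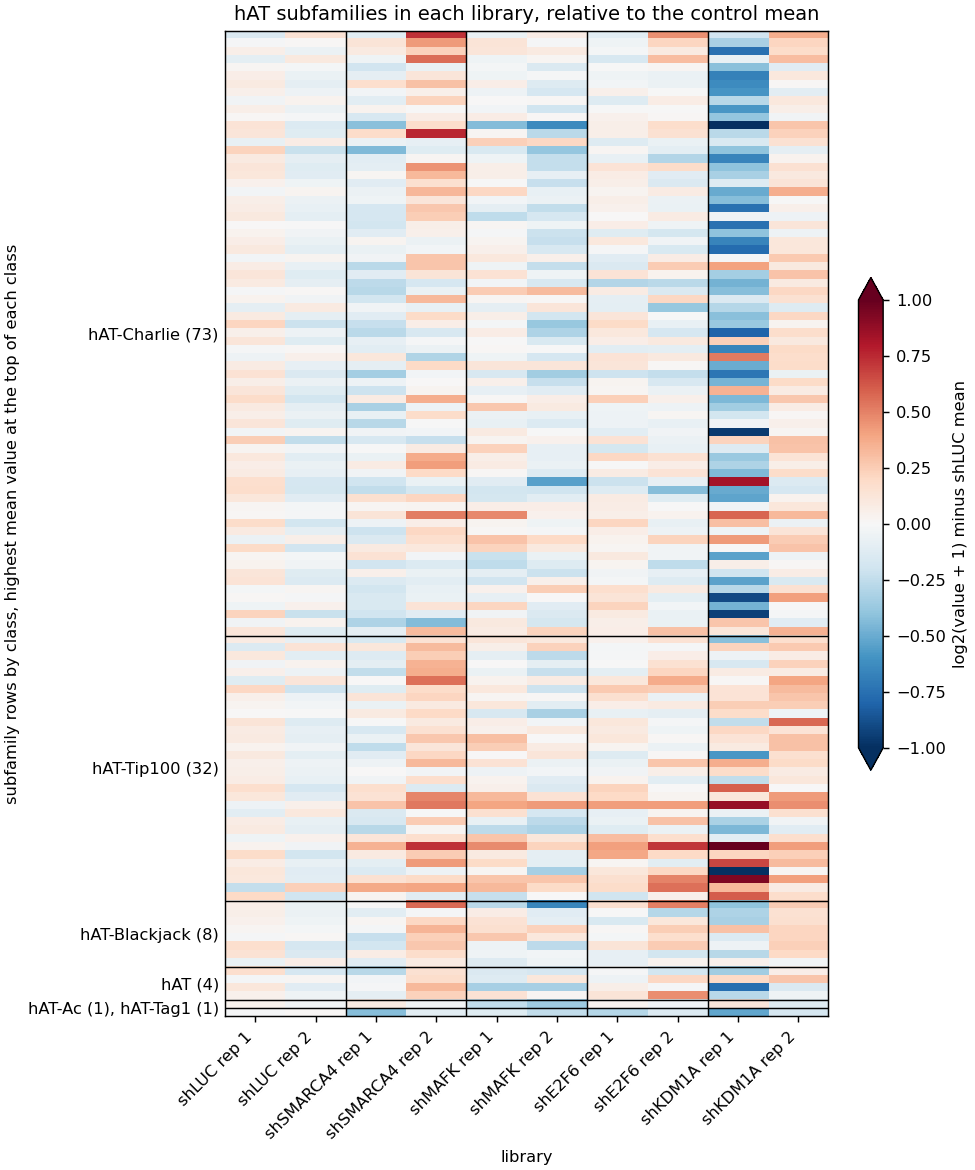
Each line is one of the 119 hAT rows and each column one of the 10 libraries; colour gives log2(value + 1) minus the shLUC mean, with blue below and red above the controls, and rows are sorted by class and then by mean value. The column of shKDM1A replicate 1 is blue over most hAT-Charlie rows (class median -0.37) and pale red over hAT-Tip100 (0.14), while shKDM1A replicate 2 is pale red in both (0.11 and 0.19). The column of shSMARCA4 replicate 2 is pale red over hAT-Tip100 (0.20) and mixed over hAT-Charlie (0.07, with 45 of 73 rows above the controls).

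Together the hAT rows held close to 1% of the summed values. Their share was 0.912% and 0.866% in shLUC, 0.851% and 1.03% with shSMARCA4, 0.886% and 0.832% with shMAFK, 0.885% and 0.928% with shE2F6, and 0.725% and 0.968% with shKDM1A. The lowest and the highest share outside shSMARCA4 were the 2 libraries of one group, shKDM1A, and every knockdown group except shMAFK had its libraries on both sides of the control mean of 0.889%. The shares were 0.889% ± 0.0325 (SD, n = 2) in shLUC, 0.941% ± 0.127 with shSMARCA4, 0.859% ± 0.0384 with shMAFK, 0.907% ± 0.0306 with shE2F6 and 0.846% ± 0.172 with shKDM1A. All TE rows together moved in the same libraries, from 12.8% in shKDM1A replicate 1 to 16.0% in shKDM1A replicate 2. As a part of all TE values, hAT rows made up 5.52% to 6.51%. TcMar, the other large superfamily of DNA transposons in the table with 77 rows, held from 0.45% in shKDM1A replicate 1 to 0.602% in shSMARCA4 replicate 2.

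**Figure D2:**
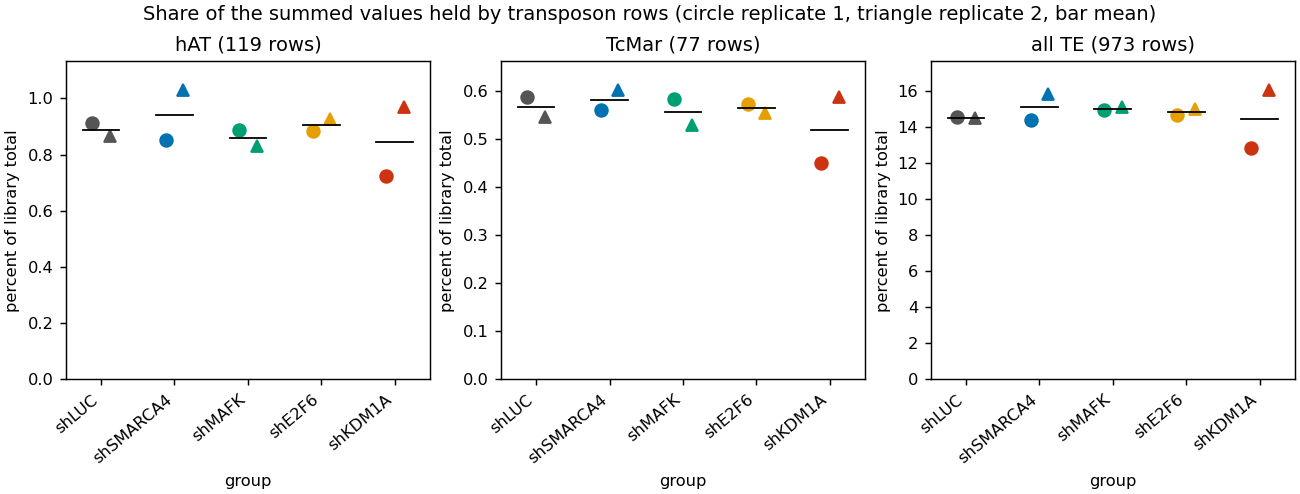
The vertical axes give the percent of a library's summed values held by 119 hAT rows, 77 TcMar rows and all 973 TE rows; circles are replicate 1, triangles replicate 2 and bars group means. In each panel shKDM1A replicate 1 is the lowest library (0.725% for hAT), and its partner lies above both controls.

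No hAT subfamily passed the test in any comparison. Each knockdown was set against shLUC with limma on log2(value + 1), and a row was called at an adjusted p under 0.05 over all 14785 rows. Called members numbered 0 of 119 with shSMARCA4, where 4.18% of all rows passed, 0 with shMAFK (0.0135% of all rows), 0 with shE2F6 (0% of all rows) and 0 with shKDM1A (0.0271%). At an unadjusted p under 0.05 there was 1 member with shSMARCA4 (16.3% of all rows), 1 with shMAFK (8.77%) and 1 with shE2F6 (5.09%), in each case MER45C, and 4 members in the KDM1A comparison (11.5%). The smallest limma adjusted p among the members was 0.296, 0.558, 0.963 and 0.274 in that order. No member differed from the controls by 2-fold or more in any comparison, where 5.76%, 2.28%, 1.09% and 3.26% of all rows did. Other TE rows were also rarely past these marks. Of those 854 rows 0.351%, 0%, 0.117% and 0.82% differed by 2-fold or more. At an unadjusted limma p under 0.05 they stood at 2.93%, 1.99%, 1.17% and 9.48%, and 1 was called with shSMARCA4 and 0 in the other comparisons.

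The intervals give the size of change that could have been missed, on the assumption that all groups share 1 spread. The SD between replicates of the members was 0.375 on the log2 scale with shKDM1A and 0.129 to 0.211 in the other groups. The shKDM1A intervals are thus likely too narrow to be a bound, and the others wider than their own spread would give. The 95% interval of the log2 change lay within 2-fold in either direction for 116 of 119 members with shSMARCA4, 115 with shMAFK, 116 with shE2F6 and 109 with shKDM1A. That was 97.5%, 96.6%, 97.5% and 91.6% of members, against 73.3%, 79.7%, 82.1% and 73.9% of all rows. Among the other 854 TE rows the shares were 90.9%, 92.7%, 92.2% and 83.6%, so narrow intervals were not particular to hAT rows. Standard errors of members ran from 0.136 to 0.414 on the log2 scale, with a median of 0.197. Changes well inside these intervals were not detectable with 2 libraries a group.

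Medians stayed near 0. The median log2 change over the 119 rows was 0.02 with shSMARCA4 (0.01 over all rows), -0.03 with shMAFK (-0.00), 0.02 with shE2F6 (-0.00) and -0.06 with shKDM1A (-0.02). The other 854 TE rows had medians of 0.08, 0.04, 0.05 and 0.07, and TcMar rows 0.04, -0.03, -0.00 and -0.08. Members above the control mean numbered 72 with shSMARCA4, 50 with shMAFK, 68 with shE2F6 and 54 with shKDM1A. The comparisons share the same 2 control libraries, so they are given side by side and not against each other. The split depends on the reference level: with each library centred on the median of its TE rows, 29.4%, 34.5%, 32.8% and 22.7% of members lay above the controls, in place of 60.5%, 42.0%, 57.1% and 45.4%, and the median of all rows then lay at -0.10, -0.02, -0.07 and -0.20.

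**Figure D3:**
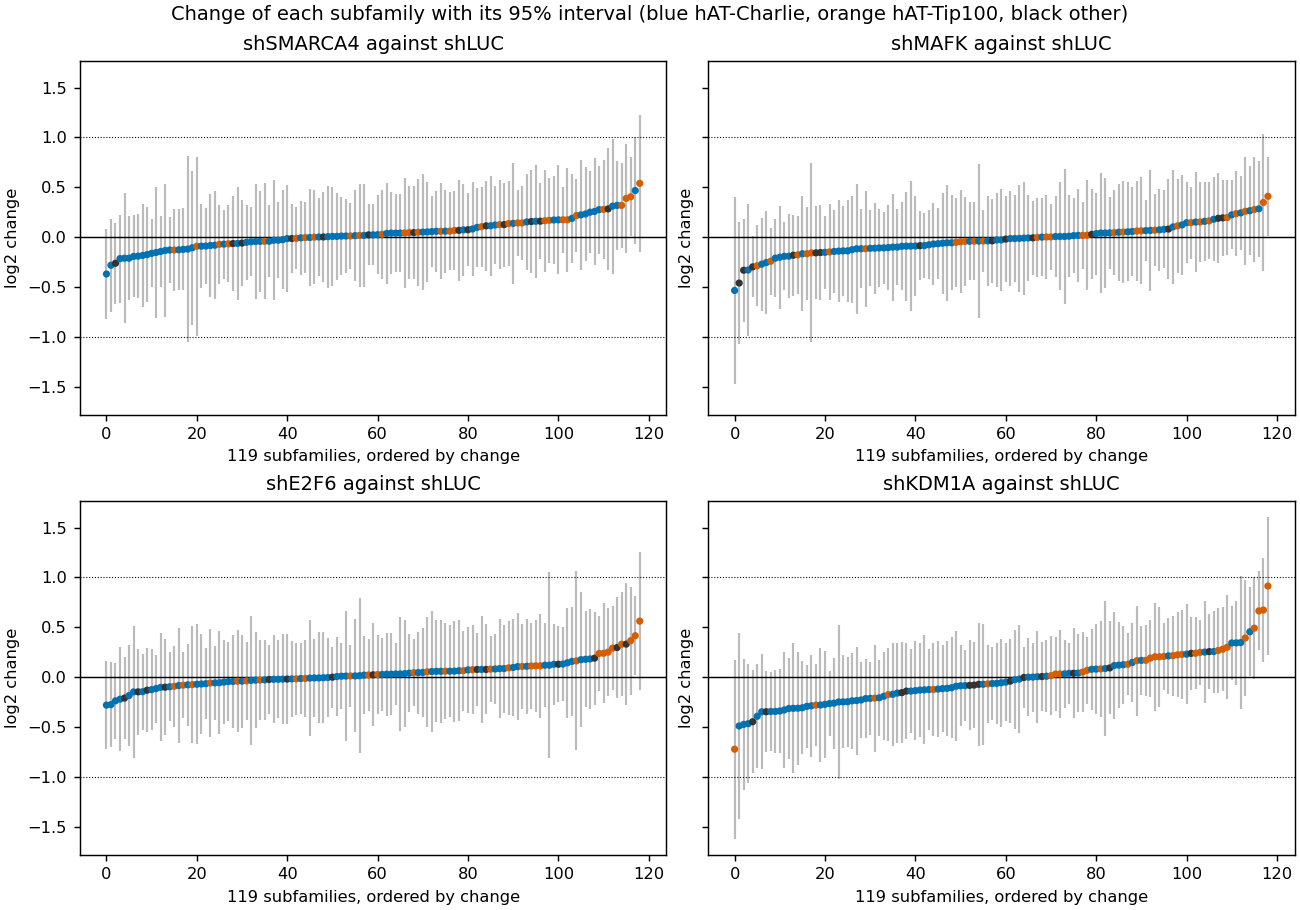
Each panel orders the 119 hAT rows by their log2 change from shLUC in one knockdown; points are changes, grey lines 95% intervals, and dotted lines mark a 2-fold change. Points run from -0.37 to 0.54 with shSMARCA4, -0.54 to 0.41 with shMAFK, -0.28 to 0.56 with shE2F6 and -0.72 to 0.91 with shKDM1A, with orange hAT-Tip100 points gathered at the right of the last panel.

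In the SMARCA4 comparison, 25 members had both knockdown libraries outside the range of the controls (15 higher, 10 lower), against 51% of all rows (25.6% higher, 25.4% lower). Among the other 854 TE rows the share without overlap was 29.4% here, and 37.1%, 30.4% and 35.5% with shMAFK, shE2F6 and shKDM1A. The largest differences upward were in hAT-Tip100 and in the Charlie-class row MER102b. MamRep488, a hAT-Tip100 row, had 162 and 154 in shLUC and 201 and 263 in shSMARCA4, a log2 difference of 0.54 (SE 0.31, limma adjusted p 0.453). MER102b had 3507 and 2952 in shLUC and 3651 and 5420 in shSMARCA4, a log2 difference of 0.47 (SE 0.24, limma adjusted p 0.393). Its 2 knockdown libraries differed more than the lower one did from the controls. FordPrefect_a had 91 and 127 in shLUC and 140 and 142 in shSMARCA4, a log2 difference of 0.39 (SE 0.24, limma adjusted p 0.499).

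Downward differences were smaller. Charlie12 had 174 and 183 in shLUC and 144 and 132 in shSMARCA4, a log2 difference of -0.37 (SE 0.20, limma adjusted p 0.428). Charlie10 had 1922 and 1701 in shLUC and 1506 and 1610 in shSMARCA4, and Charlie29a had 1552 and 1444 and then 1244 and 1343. Their log2 differences were -0.22 and -0.21 (limma adjusted p 0.685 and 0.817). All 3 are hAT-Charlie rows whose knockdown libraries lay below both controls by less than the fit could separate from the spread. Of the 2 large classes, hAT-Charlie was split evenly, with 38 rows above and 35 below the control mean. For hAT-Tip100 24 of 32 rows lay above, beside 69.2% of the other 854 TE rows. The 2 libraries did not share this: 14 hAT-Tip100 rows lay above in shSMARCA4 replicate 1 (median -0.04) and 27 in replicate 2 (0.20). For hAT-Charlie the counts were 16 and 45.

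In the comparison of the libraries labelled shMAFK, 32 members did not overlap with the controls (18 higher, 14 lower), against 49.1% of all rows (23.8% higher, 25.3% lower). Charlie21a had 4573 and 3781 in shLUC and 3074 and 2678 in shMAFK, a log2 difference of -0.54 (SE 0.41, limma adjusted p 0.838). BLACKJACK, the most abundant hAT-Blackjack row, had 3046 and 2782 in shLUC and 2421 and 1848 in shMAFK, a log2 difference of -0.46 (SE 0.27, limma adjusted p 0.724). MamRep1894, a row named only hAT, had 232 and 198 in shLUC and 170 in both shMAFK libraries, a log2 difference of -0.33 (SE 0.23, limma adjusted p 0.796). These 3 rows and OldhAT1, described above with a log2 difference of -0.30 (SE 0.14, limma adjusted p 0.588), came from 4 classes. Upward, Charlie7 had 1572 and 1605 in shLUC and 1892 and 1977 in shMAFK, a log2 difference of 0.28 (SE 0.21, limma adjusted p 0.829). Charlie7 was also the one of the 4 largest upward differences that lay in hAT-Charlie; MER45C, MamRep488 (220 and 184 in shMAFK) and FordPrefect (128 and 110 in shLUC, 144 and 144 in shMAFK) are hAT-Tip100 rows.

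In the E2F6 comparison, 24 members did not overlap with the controls (15 higher, 9 lower), against 40.7% of all rows (20.3% higher, 20.4% lower). MamRep488 had 210 and 260 in shE2F6, a log2 difference of 0.56 (SE 0.31, limma adjusted p 0.990), and FordPrefect had 133 and 168, a log2 difference of 0.33 (SE 0.23, limma adjusted p 1). BLACKJACK lay above the controls here, with 3247 and 4132, a log2 difference of 0.33 (SE 0.27, limma adjusted p 1). Its position in shE2F6 was opposite to that in shMAFK, a contrast that the F-test below takes up. Downward, Charlie10 had 1476 and 1502 (log2 difference -0.28), Charlie14a had 1552 and 1273 against 1555 and 1765 in shLUC (-0.24), and Charlie9 had 1103 and 1078 against 1402 and 1152 (-0.22). The limma adjusted p of each of these 3 Charlie rows was 1. The nearest Charlie14a values of the groups, 1552 and 1555, almost touched.

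In the KDM1A comparison, 30 members did not overlap with the controls (20 higher, 10 lower), against 38.8% of all rows (17.9% higher, 20.9% lower). The upward differences were the largest of any comparison among the members. MamRep488 had 422 and 211, a log2 difference of 0.91 (SE 0.31, limma adjusted p 0.366). FordPrefect had 228 and 158, a log2 difference of 0.67 (SE 0.23, limma adjusted p 0.372). MamTip3 had 187 and 168 in shLUC and 282 and 221 in shKDM1A, a log2 difference of 0.49 (SE 0.23, limma adjusted p 0.446). All 3 are hAT-Tip100 rows of low value, and in each replicate 1 was the higher library. Charlie25, a hAT-Charlie row, had 406 and 400 in shLUC and 604 and 506 in shKDM1A and was the remaining member at an unadjusted p under 0.05; it fell outside the naming rule and was named because of that count.

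Downward differences in shKDM1A rested mostly on replicate 1. MER58B had 6014 and 5628 in shLUC and 3874 and 5421 in shKDM1A, a log2 difference of -0.34 (SE 0.17, limma adjusted p 0.461). MER5C1 had 426 and 353 in shLUC and 268 and 348 in shKDM1A, also a log2 difference of -0.34 (SE 0.18, limma adjusted p 0.477). MamRep1894 had 127 and 194, a log2 difference of -0.45 (SE 0.23, limma adjusted p 0.468). In all 3, replicate 2 stood just under the lower control and replicate 1 far under it.

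Of the 119 members, 5 took the same side of the controls in every knockdown: MER45C, MamRep488, FordPrefect and Charlie25 lay above (3.36% of members, against 2.06% of all rows) and UCON107 below (0.84%, against 1.86%). These shares rest on 5 rows, too few to read a difference from. MER45C, a hAT-Tip100 row, had 247 and 264 in shLUC, 311 and 368 with shSMARCA4, 336 and 343 with shMAFK, 341 in both shE2F6 libraries, and 467 and 352 with shKDM1A. All knockdown libraries lay above both controls, by log2 differences of 0.40, 0.41, 0.42 and 0.66 (SE 0.18 each). The limma adjusted p was 0.296, 0.558, 0.963 and 0.274. MamRep488, given above for 3 of the knockdowns, had 220 and 184 with shMAFK, a log2 difference of 0.35 (SE 0.31, limma adjusted p 0.871). FordPrefect had 128 and 110 in shLUC, 132 and 136 with shSMARCA4 and 144 in both shMAFK libraries, log2 differences of 0.17 and 0.28 (SE 0.23 each, limma adjusted p 0.812 and 0.867). Charlie25 had 440 and 574 with shSMARCA4, 564 and 416 with shMAFK, and 420 and 413 with shE2F6, log2 differences of 0.32, 0.26 and 0.05 (SE 0.20 each, limma adjusted p 0.503, 0.829 and 1). The shE2F6 libraries of Charlie25 were only just above its controls of 406 and 400. UCON107, the hAT-Tag1 row, had 362 and 368 in shLUC, 272 and 340 with shSMARCA4, 336 and 308 with shMAFK, 300 and 332 with shE2F6, and 254 and 324 with shKDM1A. All its knockdown libraries lay below both controls, by -0.26, -0.18, -0.21 and -0.35 (SE 0.18 each, limma adjusted p 0.471 to 1). Since each comparison uses the same 2 controls, a low or high control pair alone gives such a pattern, and the 4 differences are not 4 separate observations.

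**Figure D4:**
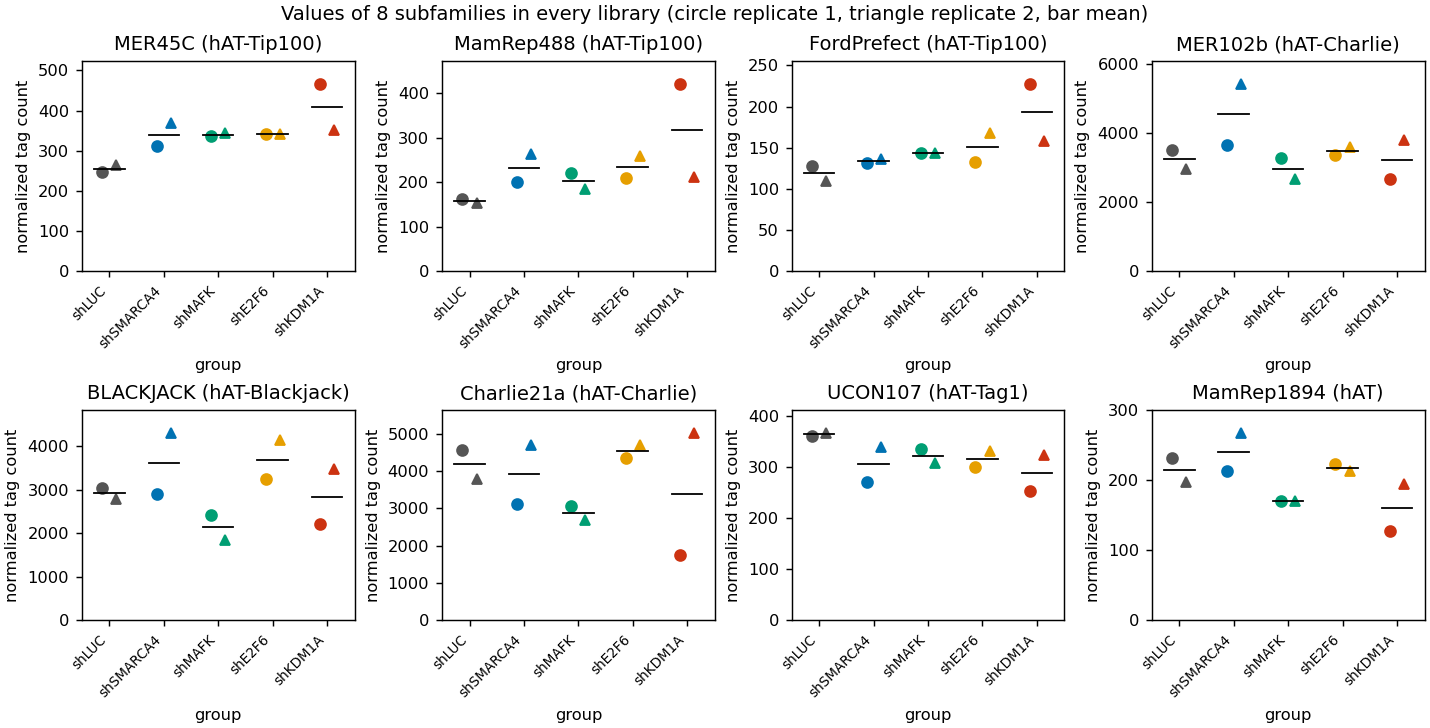
Normalized tag counts of 8 hAT rows in every library, with circles for replicate 1, triangles for replicate 2 and bars for group means; vertical axes start at 0. MER45C lies above its controls (247 and 264) and UCON107 below its controls (362 and 368) in every knockdown library, while the shKDM1A replicates of MamRep488 (422 and 211) and Charlie21a (1744 and 5028) lie far apart.

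The 4 knockdowns were also compared with each other, without the control mean, by the moderated F-test of limma. It called 0 of 119 members at an adjusted p under 0.05, against 6.64% of all rows, and 0 at an unadjusted p under 0.05, against 23.6%. The smallest F-test values belonged to BLACKJACK, MamRep1894 and ORSL (limma adjusted p 0.225, 0.266 and 0.313). BLACKJACK group means were 3610 with shSMARCA4, 2134.5 with shMAFK, 3689.5 with shE2F6 and 2842 with shKDM1A. The shSMARCA4 libraries of BLACKJACK, 2910 and 4310, lay nearly as far apart as the lowest and the highest of these means. ORSL, a hAT-Tip100 row, had 557 and 553 in shLUC, 590 and 636 with shSMARCA4, 497 and 443 with shMAFK, 528 and 522 with shE2F6, and 630 and 538 with shKDM1A. Its shMAFK libraries were the lowest of the 10.

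The 2 large classes lay differently in shKDM1A. Of 73 hAT-Charlie rows, 23 were above and 50 below the control mean, with a median log2 difference of -0.12. Of 32 hAT-Tip100 rows, 26 were above and 6 below, with a median of 0.20. Both libraries lay above both controls for 14 of them, against 17.9% of all rows and 268 of the 854 other TE rows. In shSMARCA4, shMAFK and shE2F6 the medians were 0.00, -0.04 and 0.01 for hAT-Charlie and 0.06, 0.02 and 0.07 for hAT-Tip100. The classes also differ in value, since 36 hAT-Charlie rows and 1 hAT-Tip100 row lay in the upper of 3 bins of members by mean value. In the middle bin of members, 12 of 12 hAT-Tip100 rows were above the controls in shKDM1A (median 0.19) and 7 of 21 hAT-Charlie rows (median -0.12). In the lower bin the medians were 0.20 over 19 hAT-Tip100 rows and 0.04 over 16 hAT-Charlie rows. With libraries centred on their TE median, the medians were 0.01 for hAT-Tip100 and -0.30 for hAT-Charlie, so the upward direction of hAT-Tip100 depends on the reference level. No test of the class difference was made.

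The shKDM1A libraries went separate ways. Over the 119 members the SD between replicates was 0.375 on the log2 scale with shKDM1A, against 0.146 in shLUC, 0.211 with shSMARCA4, 0.129 with shMAFK and 0.131 with shE2F6. For genes it was 0.538 in shKDM1A and 0.27 to 0.341 in the other groups. Replicate 1 was the lowest of the 10 libraries for 63 members and the highest for 20, and replicate 2 was the highest for 24 and the lowest for 0. The median hAT difference from the shLUC mean was -0.27 in replicate 1 and 0.13 in replicate 2. For hAT-Charlie it was -0.37 and 0.11, and for hAT-Tip100 0.14 and 0.19. Only hAT-Tip100, of the 2 large classes, thus had its median on the same side in both libraries. This was not particular to hAT-Tip100 among TE families. The retrotransposon families ERVL (0.242 and 0.205) and ERVL-MaLR (0.0863 and 0.216) did the same, while L1 (-0.119 and 0.223) and Alu (-0.393 and 0.154) did not. Replicate 1 also had the highest summed pluripotency and fibroblast markers of all libraries and the most rows listed at 0, 45 against 8 to 32 elsewhere. It was also the highest of all libraries for the neural marker NES (10757 against 3168 to 7576) and the trophoblast marker KRT7 (360 against 30 to 340). Each was 1 of 4 listed markers of its kind, and the others were not among the rows. The part of these markers in the hAT values of replicate 1 was not tested.

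Values of single subfamilies show the split. Charlie21a had 1744 in replicate 1 and 5028 in replicate 2, with 4573 and 3781 in shLUC. MER107 had 157 and 392, with 298 and 292 in shLUC, and Charlie17a had 409 and 806, with 777 and 811. Charlie17b went the other way, with 958 and 488 against 604 and 478. Replicate 1 lay outside both controls in all 4 rows. Replicate 2 lay between the controls for Charlie17a and Charlie17b and above both for Charlie21a and MER107. These 4 rows were chosen after their values were seen, as examples of the difference between the libraries.

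Whether a hAT subfamily was called in shKDM1A turned on that library. Without shKDM1A replicate 2, 24 of 119 members passed at a limma adjusted p under 0.05 (20.2%), where 21.9% of all rows passed. Of the 24, 20 were lower and 4 higher than shLUC. The class hAT-Charlie gave 19 of them (1 higher, 18 lower), and hAT-Tip100 gave 4 (3 higher, 1 lower). The lone remaining library is assumed in this fit to vary like the other groups. Without shKDM1A replicate 1, 0 members passed and the log2 difference of Charlie21a was 0.27 in place of -1.25, that of MER107 0.41 in place of -0.91, and that of MER97b 0.02 in place of -1.46. MamRep488 kept its direction, with 1.41 from replicate 1 and 0.42 from replicate 2. FordPrefect did so with 0.94 and 0.41, and MER45C with 0.87 and 0.46. The naming rule already required both shKDM1A libraries of these rows to lie above both controls, so the shared direction is no added support.

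**Figure D5:**
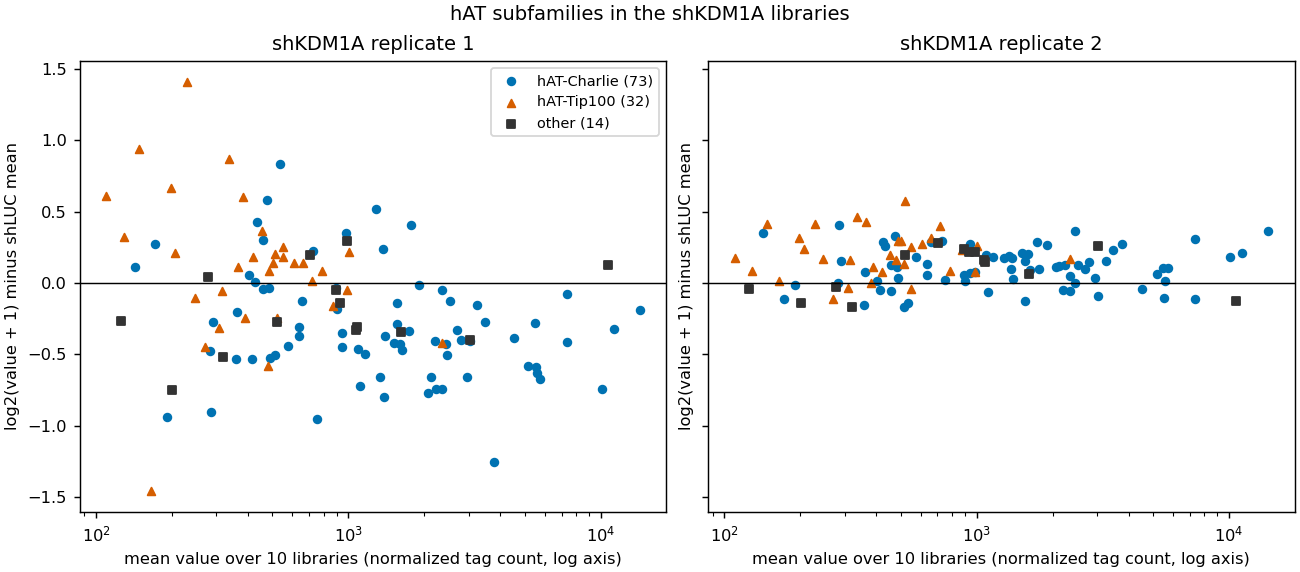
Difference of each of the 119 hAT rows from the shLUC mean on the log2 scale, against its mean value over 10 libraries on a log axis, for shKDM1A replicate 1 (left) and replicate 2 (right). In replicate 1 rows of high value lie mostly below 0 (median -0.40 in the upper of 3 bins by mean value) and several hAT-Tip100 rows of low value lie far above it; in replicate 2 the lower, middle and upper bins have medians of 0.11, 0.18 and 0.11.

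Rows that share a stem in their names were then set side by side, for 16 stems chosen by hand. Further stems with several rows, such as Charlie1, Charlie15 and MER1, were left out, so the counts of stems hold only for this choice. In shKDM1A all rows of a stem lay above the control mean for 5 stems (MER45, MER91, Arthur1, FordPrefect and Zaphod) and all below for 3 (MER58, Charlie4 and MER30). The other 8 were mixed, and FordPrefect and MER30 had only 2 rows each. The MER45 rows had medians of 0.15, 0.00, 0.25 and 0.31 in shSMARCA4, shMAFK, shE2F6 and shKDM1A, of which MER45C gave the largest value each time. MER45A had 584 and 694 in shLUC and 642 and 839 in shKDM1A, and MER45B had 711 and 532 and then 678 and 766, so neither cleared its controls there. MER45R had 122 and 92 in shLUC and 162 and 120 in shKDM1A. Only MER45C among the 4 MER45 rows had all knockdown libraries on one side of the controls. The 3 Zaphod rows (hAT-Tip100) lay above both controls in both shKDM1A libraries: Zaphod had 492 and 436 in shLUC and 510 and 568 in shKDM1A, Zaphod2 478 and 454 and then 495 and 572, and Zaphod3 524 and 467 and then 570 and 543. Their median log2 difference was 0.19. The 4 Arthur1 rows had a median of 0.23 there, with 2 of 4 above both controls. In hAT-Charlie the 4 MER58 rows had a median of -0.25 and the 3 Charlie4 rows -0.31 in shKDM1A, all below the control mean, and replicate 1 was below replicate 2 in each row. In replicates 1 and 2 the medians were -0.51 and 0.07 for MER58, -0.63 and 0.12 for Charlie4, and -0.72 and 0.18 for MER30. The downward side of these stems was thus that of replicate 1 and was not shared by the medians of replicate 2. Other stems of both classes were split: the 4 MER97 rows (hAT-Tip100) had 2 above and 2 below, with a median of -0.07, the 3 ORSL rows (hAT-Tip100) had 1 above and 2 below (-0.07), the 5 MER5 rows (hAT-Charlie) had 2 above and 3 below (-0.06), and the 2 MER20 rows (hAT-Charlie) had 1 each way (0.00). The stems described at length here were picked after their values were seen. Related rows can share reads, since how reads that match several subfamilies were assigned is not given in the sources used here.

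Genes that descend from hAT transposases, or carry the BED zinc finger and dimerisation domain of these enzymes, were examined as the host side of the family. The list held 14 genes, of which 11 were among the rows: ZBED3, ZBED4, ZBED5, ZBED6, ZBED8, ZBED9, FAM200A, FAM200B, GTF2IRD2, GTF2IRD2B and ZNF862. Against shLUC 0 of 44 gene and comparison pairs passed the threshold (4.18%, 0.0135%, 0% and 0.0271% of all rows passed in the 4 comparisons), and 4 (9.09%) had an unadjusted p under 0.05. They were 0, 1, 1 and 2 of the 11 genes in the 4 comparisons, where 16.3%, 8.77%, 5.09% and 11.5% of all rows lay under that p. Those 4 belonged to ZBED3 (shMAFK and shKDM1A) and ZBED4 (shE2F6 and shKDM1A).

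ZBED3, which binds Axin and modulates Wnt signalling, lies on chromosome 5 (77072072 to 77087323, GRCh38, minus strand). It had 134 and 275 in shLUC, 146 and 160 with shSMARCA4, 388 and 353 with shMAFK, 144 and 156 with shE2F6, and 416 and 336 with shKDM1A. The shMAFK and shKDM1A libraries lay above all 6 others, and the shLUC libraries differed from each other by more than the shSMARCA4 or shE2F6 libraries did. Against shLUC the log2 difference was 0.94 in shMAFK and 0.96 in shKDM1A (SE 0.30 each, limma adjusted p 0.354 and 0.341). These sizes turned on the controls: without shLUC replicate 1 they were 0.43 and 0.44 (limma adjusted p 1 and 0.912), and without shLUC replicate 2 they were 1.46 and 1.47 (0.124 and 0.136). Among the 4 knockdowns ZBED3 was past the threshold of the F-test, the 1 gene of the 11 to be so (limma adjusted p 0.0311, against 6.64% of all rows). That call was lost without any 1 library of shSMARCA4, shMAFK or shE2F6 (limma adjusted p 0.0822 to 0.106) and held without any 1 library of shLUC or shKDM1A (0.00963 to 0.0373). Genes annotated on the opposite strand overlap ZBED3, and whether strand was used in counting is not given in the sources used here.

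ZBED4 lies on chromosome 22 (49853842 to 49890078, plus strand). It had 1290 and 1282 in shLUC, 1458 and 1564 with shSMARCA4, 1450 and 1423 with shMAFK, 1668 and 1650 with shE2F6, and 1792 and 1739 with shKDM1A. All knockdown libraries lay above both controls, by log2 differences of 0.23, 0.16, 0.37 and 0.46 (SE 0.14 each). The limma adjusted p was 0.471, 0.870, 0.927 and 0.333. In each knockdown its replicates lay closer to each other than to the controls, but none of the 4 differences passed the threshold.

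None of the other 9 host genes passed the threshold in any comparison. Both libraries lay outside the range of the controls for 4 of the 9 with shSMARCA4 (ZBED6, ZBED8, FAM200A and ZNF862), 3 with shMAFK (ZBED6, ZBED8 and FAM200B), 2 with shE2F6 (FAM200A and ZNF862) and 1 with shKDM1A (ZBED6), where the shares of all rows were 51%, 49.1%, 40.7% and 38.8%. ZBED6, a repressor of IGF2 in muscle that sits inside ZC3H11A on chromosome 1, had 4132 and 4310 in shLUC and 4907 and 4960 in shSMARCA4, a log2 difference of 0.23 (SE 0.16, limma adjusted p 0.566); it lies on the same strand as ZC3H11A, so its value may hold reads of that gene. FAM200A had 206 and 218 in shLUC and 162 and 152 in shSMARCA4, a log2 difference of -0.43 (SE 0.20, limma adjusted p 0.345). ZBED8 had 256 and 250 in shLUC, 190 and 220 with shSMARCA4, and 194 and 238 with shMAFK, below both controls in each case, by -0.31 and -0.23 on the log2 scale (SE 0.20 each, limma adjusted p 0.517 and 0.867). GTF2IRD2 and GTF2IRD2B are nearly identical copies on chromosome 7, and their values are uncertain for that reason.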

How the data were processed

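RNA-seq of 10 libraries (5 groups of 2) was deposited as 1 table of normalized tag counts. The values were treated as a score: whole numbers that the authors had already normalized, as seen from nearly equal totals (22836548 to 22855295) and a shared median, so they are not raw counts and the depth is unknown. The submitters' processing notes name hg38, STAR and STARsolo, with no role; the counting of repeats, the assignment of multiply mapped reads and the normalization are not given in the sources used here.

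Groups and replicate numbers came from sample titles. Values were analysed as log2(value + 1) in R 4.3.3 by limma 3.58.1 (a linear model with trended eBayes, two-sided); 1 fit held the 10 libraries and left 5 residual degrees of freedom. A fold change on this scale understates changes where values are low. A minimum mean of 10 was required, which removed no row. Benjamini-Hochberg adjustment ran over all 14785 rows, with a threshold of 0.05. The script was tested on simulated data. Gene positions are from GENCODE release 29 on GRCh38; figures used matplotlib 3.10.9.

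Named subfamilies were, for each knockdown, the 4 largest differences each way, where the higher group averaged 50 or more and no knockdown library overlapped the controls, the 3 smallest F-test values and the most abundant row of each class; host genes were named at an unadjusted p under 0.05, and others are marked where they appear. The members and lists were chosen with earlier results of these data known. Replicate numbers were not taken as pairs, since over all rows only 2 of 10 correlations of replicate deviations (-0.05 to 0.337) exceeded 0.1, and over the hAT rows alone 4 of 10 (-0.177 to 0.451). Alternatives covered the pseudocount, filter, scaling, variance model, libraries in the fit and the replicate block. No consensus sequence of a hAT subfamily was at hand, so none is shown.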

Additional observations from a re-analysis of the deposited data

How the results depend on the processing

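Every alternative kept 0 called members in the shSMARCA4, shMAFK and shE2F6 comparisons. In shKDM1A the count was 0 under every alternative except without shKDM1A replicate 2, where it was 24 (leaving out single libraries, 0 to 24), and the F-test then called 21 (0 to 21, against 35.9% of all rows). Called host genes numbered 2 in that fit and 0 in all others (0 to 2). The cause of this dependence on 1 library was not tested. Of 746 values of named rows and host genes under alternatives, 740 kept direction and side of the threshold, and 0 reversed. The other 6 came without shKDM1A replicate 2: MamRep488 (1.41), FordPrefect (0.94), MER45C (0.87), MamRep1894 (-0.75), MER58B (-0.59) and ZBED4 (0.48). All these rows had both knockdown libraries on 1 side of both controls in the main fit. Leaving out 1 library could therefore not reverse them, and the alternative without a filter equals the main fit. Quantile normalization gave the same rounded hAT medians as the main fit in all 4 comparisons, so it adds little as a check. The median log2 change in shMAFK ran from -0.103 to 0.025 and that in shE2F6 from -0.029 to 0.071 when single libraries were left out, and the latter was -0.047 with libraries centred on TE rows; the medians of shSMARCA4 (-0.09 to 0.15) and shKDM1A (-0.27 to 0.13) also crossed 0. As a share of TE values in place of all values, hAT rows held 6.12% (shLUC), 6.21% (shSMARCA4), 5.72% (shMAFK), 6.12% (shE2F6) and 5.85% (shKDM1A). With the replicate number as a block, the counts of called members were 0 in all 4 comparisons and in the F-test, and the block changed no call. Unknown depth and 2 libraries a group limit what could be detected.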

Other observations

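TcMar DNA transposons, another cut-and-paste superfamily, lay in the libraries much as the hAT rows did. Against the shLUC mean, the median of the 77 TcMar rows was -0.25 in shKDM1A replicate 1 and 0.10 in replicate 2, beside -0.27 and 0.13 for the 119 hAT rows. In shMAFK it was 0.05 and -0.10, beside 0.02 and -0.08. TE rows other than hAT, most of them retrotransposons, had medians of -0.02 and 0.17 in the shKDM1A libraries. Of the 40 hAT rows in the upper of 3 bins by mean value, 2 lay above the control mean in shKDM1A replicate 1 and 31 in replicate 2. These values share libraries and were not tested against each other.

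The 2 rows named MER96B lay at separate levels. The hAT-Tip100 row had 1070 and 926 in shLUC and 963 and 1050 in shKDM1A, and the row named only hAT had 123 and 116 and then 99 and 116. How the same name came to stand in both classes is not given in the sources used here.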
